A study of Mus musculus with 9 samples.

Results

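The 9 genes described here, Mbp, Mog, Mag, Mobp, Cnp, Myrf, Cldn11, Ermn and Opalin, were chosen by name as genes of central myelin and of the mature oligodendrocyte, out of 52550 genes in the count table. Earlier results of these data were known when they were chosen, so counts set beside the share of all genes are a description. All 9 were among the 18699 genes with enough counts to be tested. RNA of the spinal cord was sequenced in 9 mice, 3 in each group, on day 7. In Sham mice the lamina was opened and the cord left intact. Mice of the SCI group had a thoracic contusion and intraperitoneal DMSO, the vehicle. Mice of the SCI+FIPI group had the same contusion and daily intraperitoneal FIPI (5-fluoro-2-indolyl des-chlorohalopemide), an inhibitor of phospholipase D, from the time of injury. All mice were adult C57BL/6N females, and no engineered allele is named for any group. Sham mice received neither drug nor vehicle as far as the methods state, so contusion and DMSO cannot be told apart in SCI against Sham. Each library is a piece of cord around the epicenter, with every cell type in it.

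Oligodendrocytes wrap axons of the central nervous system in myelin, a stack of membrane held together by a small number of abundant proteins. Mbp and Mobp are found in compact myelin, where basic proteins hold the cytoplasmic faces of the membrane together. Mag faces the axon, Cnp keeps the cytoplasmic channels of the sheath open, Mog lies on the outer surface, and Cldn11 forms the tight junctions between layers of the sheath. Ermn (ermin) is a cytoskeletal protein and Opalin a membrane glycoprotein of late oligodendrocyte stages. Myrf is the transcription factor that switches on and maintains the myelin genes. After a contusion of the cord, oligodendrocytes die, precursor cells divide and differentiate, and Schwann cells can enter the lesion.

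Counts per mouse totalled 20806000 to 24582377. The lowest count of any of the 9 genes in any mouse was 435, for Opalin, and the highest 456478, for Mbp, so counting error was small for all of them. Mitochondrial genes took 4.90% to 5.49% of the counts in Sham mice and 2.96% to 3.54% in the injured mice. Levels are given as CPM, the count scaled to the library total with TMM factors. Lists of markers for other cells were fixed, with earlier results of these data known, to accompany the results. The summed level of 10 microglia and macrophage genes was 320 to 477 CPM in Sham, 5965 to 6956 in SCI and 3904 to 5829 in SCI+FIPI. That of 10 neuronal genes was 7434 to 8486, 2457 to 3464 and 3978 to 4676 in the same order. Their part in the results was not tested. Since CPM is a share of the whole library, a gain of RNA from other cells lowers the CPM of each myelin gene, and fewer oligodendrocytes and less RNA per oligodendrocyte cannot be told apart in such tissue.

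The start regions of 4 of the genes are printed to show the sequence in front of the 3 genes that differed most between injured and Sham cord and of Cldn11, whose level was not lower in SCI. RefSeq promoters were found for 7 of the 9 genes, and each stretch is the 250 bases before the annotated start on GRCm38.p6, written 5′ to 3′ on the strand of the gene. Capitals mark matches, on either strand, to the SOX motifs ACAAAG and ACAATG. The MYRF motifs CTGGCAC and CTGGTAC and the TATA motif TATAAA were searched in the same way, and none of the motifs overlap another of the list.
Ermn, chr2:58052865-58053114, minus strand: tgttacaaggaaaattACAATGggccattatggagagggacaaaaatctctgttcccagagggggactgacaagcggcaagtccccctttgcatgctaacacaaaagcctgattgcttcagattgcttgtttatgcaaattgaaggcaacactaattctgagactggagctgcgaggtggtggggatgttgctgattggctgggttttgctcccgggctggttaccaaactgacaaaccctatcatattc
Opalin, chr19:41077114-41077363, minus strand: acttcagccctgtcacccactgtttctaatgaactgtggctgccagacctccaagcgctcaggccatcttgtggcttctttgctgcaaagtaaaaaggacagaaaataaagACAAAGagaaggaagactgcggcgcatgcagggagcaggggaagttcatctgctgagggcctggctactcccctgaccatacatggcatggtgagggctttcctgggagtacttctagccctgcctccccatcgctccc
Mobp, chr9:120149492-120149741, plus strand: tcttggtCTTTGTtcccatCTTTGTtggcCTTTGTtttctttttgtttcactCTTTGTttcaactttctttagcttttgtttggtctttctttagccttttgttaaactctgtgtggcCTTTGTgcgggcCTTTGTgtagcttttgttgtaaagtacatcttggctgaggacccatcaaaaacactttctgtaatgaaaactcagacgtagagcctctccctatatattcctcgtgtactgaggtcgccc
Cldn11, chr3:31149670-31149919, plus strand: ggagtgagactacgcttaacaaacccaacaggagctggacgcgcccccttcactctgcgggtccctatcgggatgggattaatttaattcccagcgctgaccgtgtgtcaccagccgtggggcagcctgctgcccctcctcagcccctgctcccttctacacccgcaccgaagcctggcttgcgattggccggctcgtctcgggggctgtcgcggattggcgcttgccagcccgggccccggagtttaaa
Ermn held ACAATG 234 bases before the start, and Opalin held ACAAAG 139 bases before the start. Mobp held 6 matches to ACAAAG, all of them on the other strand and therefore printed as its reverse complement. Cldn11 held none of the 5 motifs. Among the 3 genes not printed, Mog matched CTGGTAC, 83 bases before the start, and Cnp matched CTGGCAC, 81 bases before the start, together with ACAAAG. The first listed promoter of Mag matched CTGGCAC, 68 bases before the start, and ACAAAG. Of 32851 promoters of this length, 16.5% held ACAAAG, 10.7% ACAATG, 4.19% CTGGCAC, 1.83% CTGGTAC and 12.4% TATAAA. A match describes letters in a window and was not measured as binding.

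Comparison of SCI with Sham asked how the RNA of the myelin genes stood 7 days after contusion. Of the 9 genes, 4 fell and none rose. Ermn and Opalin fell the most, Mobp and Mog fell by smaller amounts, Mag and Mbp were lower without reaching the limit on the fold change, and Cnp, Myrf and Cldn11 did not pass the test. A gene was said to rise or fall when its log2 fold change was at least 0.5 in size and its Benjamini-Hochberg adjusted p over all genes tested was under 0.05 in the quasi-likelihood test of edgeR. The share of all genes tested that fell by this rule was 22.5%, against 4 of the 9. In 7 of the 9 genes every SCI mouse lay below every Sham mouse, which was so for 35.0% of all genes. The median log2 fold change of the 9 was -0.36, and that of all genes tested was -0.00315.

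Ermn (ENSMUSG00000026830, chr2:58045113-58052864 on GRCm38) had 246, 258 and 275 CPM in the 3 Sham mice, 119.5, 112 and 98.4 in the SCI mice and 120.02, 121 and 127 in the SCI+FIPI mice. The Sham mice stood far above both injured groups, and the highest injured mouse was below the lowest Sham mouse. In SCI the level was 2.36-fold lower than in Sham (log2 fold change -1.24, SE 0.0721, adjusted p = 2.016e-09). Ermn shares 6.44% of the 50-base stretches of its longest transcript with other genes, and 237 bases of its exons lie opposite exons of Galnt5, which had 4 to 17 counts in any mouse.

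Opalin (ENSMUSG00000050121, chr19:41061710-41077113) had 53.1, 51.2 and 44.9 CPM in Sham, 20.97, 22.2 and 20.7 in SCI and 19.4, 23.6 and 24.2 in SCI+FIPI. The SCI mice lay close together, and no injured mouse came near the Sham range. The level in SCI was 2.33-fold below Sham (log2 fold change -1.22, SE 0.0918, adjusted p = 2.471e-08). Ermn and Opalin therefore stood apart from the other 7 genes by the size of the fall, and their 95% intervals, -1.40 to -1.09 and -1.42 to -1.03, did not reach those of any other member.

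Mobp (ENSMUSG00000032517, chr9:120149707-120181484) had 3724, 3634 and 3529 CPM in Sham, 2179, 2263 and 1977 in SCI and 2106, 2376 and 2425 in SCI+FIPI. The 6 injured mice were all below the Sham mice and mixed with each other. In SCI Mobp was 1.70-fold lower (log2 fold change -0.76, SE 0.0770, adjusted p = 5.377e-07).

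Mog (ENSMUSG00000076439, chr17:37010743-37023398) had 217, 214 and 211 CPM in Sham, 154, 125 and 133 in SCI and 135, 153 and 153 in SCI+FIPI. The Sham mice were within a few CPM of each other, and the SCI mice were more spread and all lower. The level in SCI was 1.56-fold lower (log2 fold change -0.64, SE 0.0761, adjusted p = 2.811e-06).

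**Figure D1:**
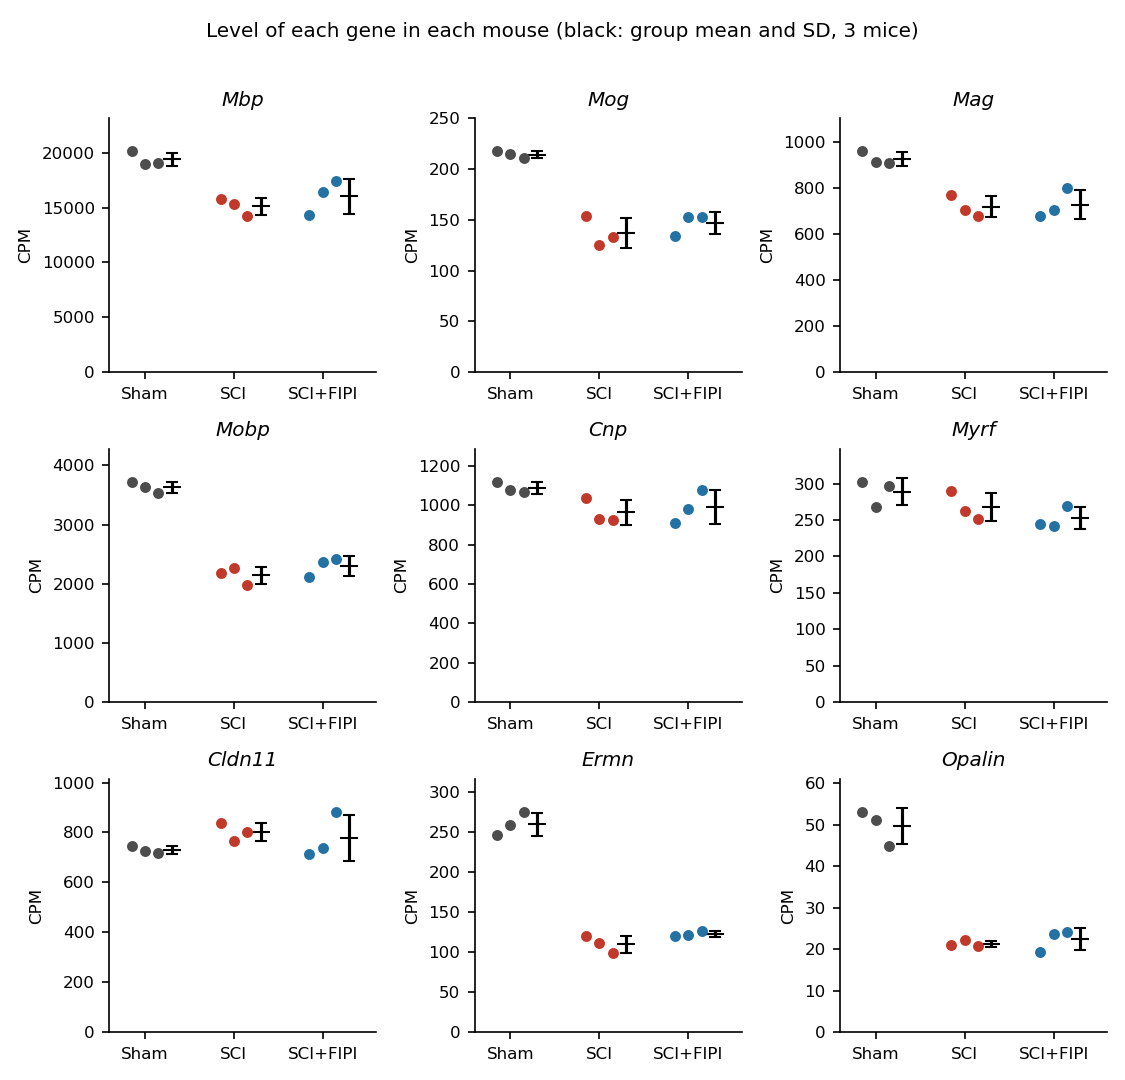
Level of each of the 9 genes in CPM (y axis, from 0) in each mouse, by group (x axis), with 1 point per mouse and the mean and SD of 3 mice in black. Ermn, Opalin, Mobp and Mog lie lower in all 6 injured mice than in all 3 Sham mice, and Cldn11 does not.

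Mbp (ENSMUSG00000041607, on chromosome 18 at 82475146 to 82585637) had 20123, 19012 and 19075 CPM in Sham, 15764, 15367 and 14266 in SCI and 14308, 16402 and 17401 in SCI+FIPI. Every injured mouse was below every Sham mouse, and the SCI+FIPI mice were the most spread. In SCI the level was 1.28-fold lower (log2 fold change -0.36, SE 0.0837, adjusted p = 0.001568), which does not reach the limit on the fold change.

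Mag (ENSMUSG00000036634, chr7:30899176-30914873) had 958, 910.3 and 907 CPM in Sham, 771, 705 and 679.8 in SCI and 678, 703 and 798 in SCI+FIPI. The injured groups were below Sham and covered nearly the same range. The difference in SCI was close to that of Mbp (log2 fold change -0.36, SE 0.0751, adjusted p = 0.0005778) and was past both limits, at -0.54, only where GC content and gene length entered the model.

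Cnp (ENSMUSG00000006782, chr11:100574904-100591729) had 1120.03, 1076 and 1066 CPM in Sham, 1038, 928 and 925 in SCI and 909, 983 and 1079 in SCI+FIPI. The SCI mice lay just below the Sham mice, and the highest SCI+FIPI mouse was within the Sham range. The log2 fold change in SCI was -0.17 (SE 0.0756, adjusted p = 0.05558). Exons of Cnp and of Dnajc7, on the other strand, overlap by 154 bases, and reads there cannot be told apart if strand was not used in counting. Dnajc7 had 109.7 CPM in Sham and 91.4 in SCI on average.

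Myrf (ENSMUSG00000036098, chr19:10208272-10240748) had 303, 268 and 296 CPM in Sham, 289, 262 and 252 in SCI and 245, 242 and 269.7 in SCI+FIPI. The values of SCI and Sham mice overlapped. The log2 fold change in SCI was -0.11, with a 95% interval of -0.26 to 0.04 (adjusted p = 0.1927). For the regulator of the myelin genes, a fall of the size seen for Mog, Mobp, Ermn or Opalin lay outside this interval.

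Cldn11 (ENSMUSG00000037625, chr3:31149920-31164324) had 748, 725 and 716 CPM in Sham, 836, 765 and 800.4 in SCI and 713, 738 and 882 in SCI+FIPI. It was the only one of the 9 genes whose SCI mice all lay above the Sham mice, although not past the test. The log2 fold change was 0.13, with an interval of -0.04 to 0.30 (adjusted p = 0.1515), and 0.02 with GC content and gene length in the model.

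**Figure D2:**
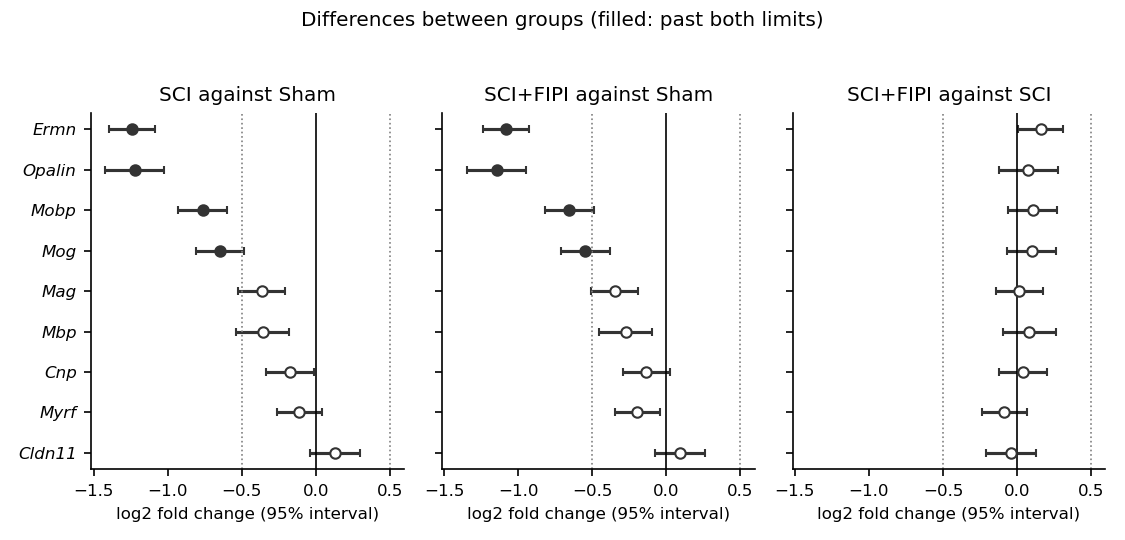
Log2 fold change of each of the 9 genes (x axis, with its 95% interval) in SCI against Sham, SCI+FIPI against Sham and SCI+FIPI against SCI. Filled points passed both limits, dotted lines mark the fold limit of 0.5, and the order runs from Ermn at -1.24 to Cldn11 at 0.13 in SCI against Sham, while all SCI+FIPI against SCI values lie between -0.09 and 0.16.

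The log2 fold changes in SCI thus ranged from -1.24 to 0.13 within the set. To compare them without a scaling between libraries, each gene was set against the mean log2 level of the other 8 in the same mouse. In this ratio the SCI and Sham mice did not overlap for any of the 9 genes, with an exact two-sided permutation p of 0.1, the smallest that 3 mice against 3 allow. The ratio was not computed for other genes, so no share over all genes stands beside this count. By construction the 9 ratios cancel out within a mouse, so a fall in some raises the others. They are not separate results. Relative to the other 8, Cldn11 was higher in SCI by 0.74 on the log2 scale, Myrf by 0.47, Cnp by 0.40, Mbp by 0.19 and Mag by 0.18. The same difference in the ratio was -0.80 for Ermn, -0.78 for Opalin, -0.27 for Mobp and -0.14 for Mog. Such a ratio shows unequal change within the set and does not show which gene was constant.

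In the log2 ratio within a pair of genes, SCI and Sham mice did not overlap for 32 of the 36 pairs. Pairs of other genes were not compared, so whether this count is unusual was not tested. The 36 pairs share their genes and are not separate results. Of the pairs, 3 are given as examples, from the same CPM values. The log2 ratio of the CPM of Cldn11 to that of Ermn was 1.49 ± 0.110 (SD, n = 3) in Sham and 2.87 ± 0.134 in SCI, and the groups did not overlap. That of Ermn to Opalin was 2.38 ± 0.205 in Sham and 2.36 ± 0.134 in SCI, with overlapping mice. That of Mbp to Mag was 4.39 ± 0.00537 in Sham and 4.40 ± 0.0466 in SCI, also overlapping. Between SCI and Sham the mean of the ratio differed by -0.026 for Ermn to Opalin and by 0.0066 for Mbp to Mag, against 1.38 for Cldn11 to Ermn.

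**Figure D3:**
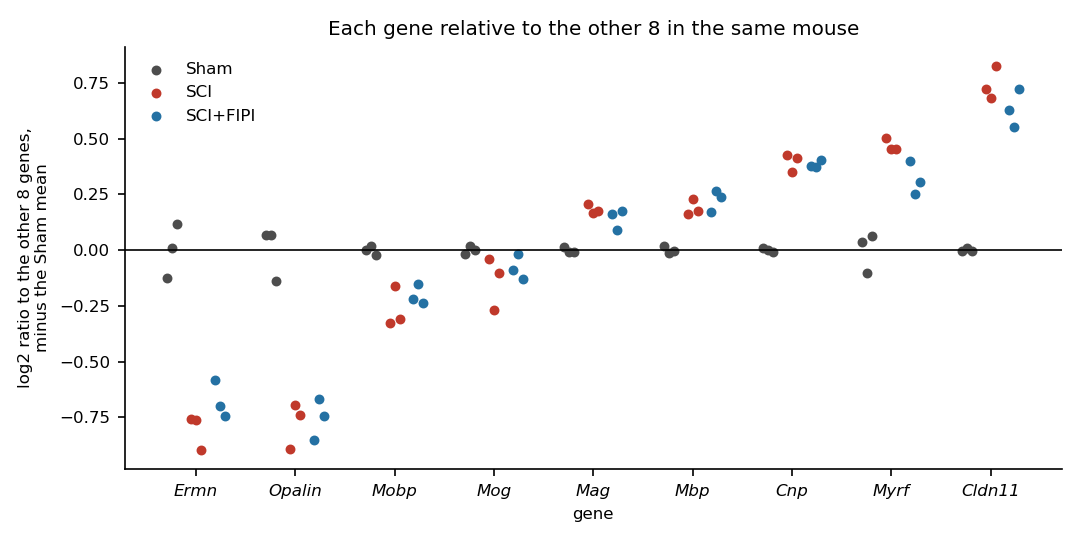
Log2 ratio of each gene to the mean of the other 8 in the same mouse, minus the Sham mean (y axis), for the 9 genes (x axis), with 1 point per mouse and colors for Sham, SCI and SCI+FIPI. On average SCI mice sit 0.80 below Sham for Ermn and 0.74 above it for Cldn11, and SCI+FIPI mice sit on the same side of 0 as SCI mice for each gene.

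Levels were compared between genes only per length, as FPKM over the exonic length of the gene. In Sham cord Mbp had 2308 FPKM, followed by Mobp with 534, Cldn11 with 393, Cnp with 301, Mag with 229, Mog with 127, Ermn with 71.9, Myrf with 34.0 and Opalin with 17.0, and no neighbours in this order overlapped between mice. In SCI, Cldn11 with 423 FPKM stood above Mobp with 308, without overlap. Ermn, with 29.8 FPKM, could no longer be separated from Myrf, with 30.9. In SCI+FIPI, Cldn11 with 417 was again above Mobp with 337, and Ermn with 33.8 was above Myrf with 29.6. The rest of the order was that of Sham in both injured groups. The order depends on the length used. The longest transcript of Mobp has 3286 bases against 6849 exonic bases, and that of Myrf 5674 against 8562. For Cldn11 (1870) and Ermn (3635) both lengths are the same. Per longest transcript, Mobp and Myrf would stand higher against Cldn11 and Ermn, so these changes of order are given for the exonic length only.

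Mbp made up 57.5% ± 0.322 of the summed FPKM of the 9 genes in Sham, 57.3% ± 0.672 in SCI and 58.2% ± 0.815 in SCI+FIPI (SD, n = 3). Cldn11 made up 9.80% ± 0.0758 in Sham, 13.7% ± 0.674 in SCI and 12.8% ± 0.677 in SCI+FIPI. The share of Mobp was 13.3% ± 0.185, 10.02% ± 0.483 and 10.3% ± 0.298 in the same order. The size of these shares also depends on the use of the exonic length. Together the 9 genes took 2.603% to 2.76% of all counts in Sham mice, 1.89% to 2.09% in SCI mice and 1.92% to 2.33% in SCI+FIPI mice. Both injured groups lay below Sham in this share and overlapped each other.

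Comparison of SCI+FIPI with SCI asked whether treatment with the inhibitor changed these genes. None of the 9 genes passed the test, while 3.06% of all genes tested did in either direction. Of the 9, 1 had an unadjusted p under 0.05, and DESeq2 and limma-voom also called 0 of them. The 9 log2 fold changes lay between -0.09, for Myrf, and 0.16, for Ermn, with a median of 0.08. All 9 intervals lay between -0.24 and 0.31 on the log2 scale, a range of 0.847-fold to 1.24-fold, so that a return to the Sham level was outside the interval of each of the 4 genes that fell after injury.

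Ermn was the only gene in which the groups did not overlap, and all 3 SCI+FIPI mice were just above the highest SCI mouse. This was so, in one direction or the other, for 30.2% of all genes. Its log2 fold change was 0.16, with an interval of 0.0058 to 0.31 (adjusted p = 0.1814). Without SCI replicate 1, the SCI mouse with the highest Ermn level, it was 0.23 with an adjusted p of 0.04835, which is still under the limit on the fold change. Values for Mobp were 0.11 (adjusted p = 0.4245), for Mog 0.10 (0.4637), for Mbp 0.08 (0.5811) and for Opalin 0.08 (0.6691). Those for Cnp were 0.04 (0.798), for Mag 0.02 (0.9283), for Cldn11 -0.04 (0.7965) and for Myrf -0.09 (0.4982). In the ratio to the other 8 genes, Myrf was lower in SCI+FIPI than in SCI by a difference of -0.15 and Ermn higher by 0.13, each without overlap, and the other 7 overlapped. The exact permutation p of 0.1 for both is the smallest that 3 mice against 3 can give and is not adjusted for the 9 genes compared, so neither difference passed a test.

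In SCI+FIPI against Sham, a comparison that shares its Sham mice with the first, the genes that fell were Ermn, Opalin, Mobp and Mog. This is 4 of the 9, against 17.0% of all genes tested that fell. The log2 fold change was -1.15 for Opalin (SE 0.0916, adjusted p = 9.512e-08) and -1.08 for Ermn (SE 0.0718, adjusted p = 1.697e-08). It was -0.66 for Mobp (SE 0.0769, adjusted p = 3.943e-06) and -0.55 for Mog (SE 0.0760, adjusted p = 2.114e-05). Mog was -0.49, short of the limit on the fold change, without SCI+FIPI replicate 1. In 6 of the 9 genes every SCI+FIPI mouse was below every Sham mouse, which was so for 32.9% of all genes. The rest were -0.35 for Mag (adjusted p = 0.001009), -0.27 for Mbp (0.01101), -0.20 for Myrf (0.02947), -0.13 for Cnp (0.1418) and 0.09 for Cldn11 (0.3363).

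The 9 genes also varied together among mice of one group. In SCI+FIPI replicate 1 all 9 were below the mean of the group, with a median deviation of -0.12 on the log2 scale, and in SCI+FIPI replicate 3 all 9 were above it, with a median of 0.12. In SCI replicate 1, 8 of the 9 were above the mean of their group, with a median of 0.10, and in SCI replicate 3, 8 were below, with a median of -0.08. The Sham mice stayed closer, with medians of 0.04, -0.0086 and -0.03. These shifts are as large as the differences between SCI+FIPI and SCI given above, and the points share a library, so that they describe single mice.

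**Figure D4:**
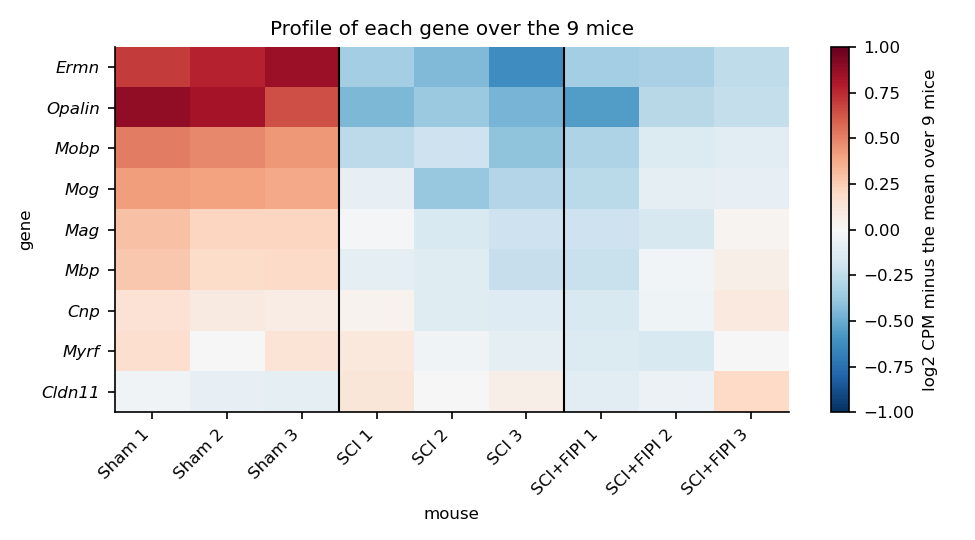
Log2 CPM of each gene minus its mean over the 9 mice (color), for genes (rows, ordered by the change in SCI) and mice (columns, grouped as Sham, SCI and SCI+FIPI). Ermn and Opalin at the top change most between Sham and injured mice, and SCI+FIPI 1 and SCI+FIPI 3 differ from each other in all rows.

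Schwann cells, which myelinate peripheral nerves, also make Mbp, Mag and Cnp, so the level of their markers stands beside those genes. The summed level of 9 Schwann cell genes was 513 to 873 CPM in Sham, 850 to 994 in SCI and 616 to 1357 in SCI+FIPI, and no gene of the list was near 0. Of the 9, 2 rose and none fell in SCI against Sham, where 24.4% of all genes tested rose. These were Egr2, the regulator of peripheral myelin genes, at 2.03 (SE 0.314, adjusted p = 0.0004883) and Dhh, a signal from Schwann cells to the nerve sheath, at 1.09 (SE 0.206, adjusted p = 0.0004132). Compared with Sham, 4 of the 9 Schwann genes rose in SCI+FIPI (Egr2, Dhh, Pmp22 and Pou3f1), where 21.2% of all genes tested rose. The count was 8 without SCI+FIPI replicate 1, in which all 9 myelin genes were below their group mean, and 2 without Sham replicate 3. No Schwann gene passed the test in SCI+FIPI against SCI, and 1 did without SCI replicate 1. Their part in the values of Mbp, Mag and Cnp was not tested.

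Other genes of mature oligodendrocytes were counted on a list of 20, all tested. In SCI against Sham 9 fell and none rose, with a median log2 fold change of -0.46, where 22.5% of all genes tested fell and 24.4% rose. These shares, and 3.06% past the limits in SCI+FIPI against SCI, are the background of the counts for the lists that follow. Gpr37, an orphan receptor of oligodendrocytes, fell from 213 ± 14.9 to 104 ± 6.68 CPM (SD, n = 3), with a log2 fold change of -1.03 (SE 0.0681, adjusted p = 6.77e-09). Mal, a myelin proteolipid, had -0.98 (SE 0.0917, adjusted p = 3.602e-07) and Tmem88b had -0.92 (SE 0.0649, adjusted p = 1.282e-08). With FIPI, none of the 20 passed against SCI, with a median of 0.09. The 3 with the largest values were Pllp with 0.37 (adjusted p = 0.1066), Aspa with 0.26 (0.02581, under the fold limit) and Mal with 0.16 (0.3042). Against Sham, 7 of them fell in SCI+FIPI, with a median of -0.37, where 17.0% of all genes tested fell. Of the 3 genes with a positive value in SCI against Sham, the highest, Gsn, had 0.499, just under the fold limit, and passed it in some alternatives.

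Enzymes and carriers of the myelin sphingolipids, which include the galactolipids, were a list of 9. In SCI, 3 fell and 2 rose, with a median of -0.01, against 22.5% and 24.4% of all genes tested. Fa2h, which makes the hydroxylated fatty acid of galactolipids, fell by 0.87 on the log2 scale (SE 0.0981, adjusted p = 5.257e-06) and Ugt8a, which adds galactose to ceramide, fell by 0.77 (SE 0.0711, adjusted p = 2.06e-07). Gltp, a glycolipid carrier, rose by 0.77 (SE 0.0766, adjusted p = 4.432e-07). The other 2 past the limits were elongases of very long chain fatty acids, Elovl7 at -0.55 and Elovl1 at 0.65. Neither kept its call with GC content and length in the model, at -0.42 and 0.49, where Sptlc2 was past the limits at 0.55. The list as a whole thus had members in both directions. Between SCI+FIPI and SCI none passed, and Sgms1 had -0.29 (adjusted p = 0.01901, under the fold limit), Gltp -0.19 (0.1261) and Sptlc2 -0.18 (0.05712).

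Of 10 transcription factors of the lineage, beside Myrf, 2 rose and none fell in SCI, with a median of 0.02, a share no larger than the 24.4% of all genes tested that rose. Tcf7l2, a Wnt pathway factor of differentiating oligodendrocytes, had 7.62, 11.6 and 11.9 CPM in Sham and 24.8, 29.6 and 28.01 in SCI. The groups were far apart, with a log2 fold change of 1.40 (SE 0.147, adjusted p = 2.415e-06). Zfp488, which acts in oligodendrocyte differentiation, rose by 0.55 (SE 0.0939, adjusted p = 0.0001021), and Sox8 had -0.42 (adjusted p = 4.634e-05), short of the fold limit. Zfp488 had 0.49 with upper-quartile factors and lost the call, and with GC content and length in the model Sox8 had -0.61 and Zeb2, a repressor of signals that block myelination, 0.74, both past the limits there. None passed in SCI+FIPI against SCI, where Tcf7l2 had -0.35 (adjusted p = 0.1309).

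Of 10 genes of oligodendrocyte precursors, 5 rose and 1 fell in SCI, with a median of 0.59, against 24.4% and 22.5% of all genes tested. Matn4, a matrix protein, had a log2 fold change of 1.84 (SE 0.0968, adjusted p = 8.562e-10), Cspg4, the NG2 proteoglycan, 1.41 (SE 0.0859, adjusted p = 3.867e-09) and C1ql1 1.26 (SE 0.110, adjusted p = 1.101e-07). The other 2 that rose were Pdgfra, the receptor for platelet-derived growth factor, at 0.92 and Gpr17, a receptor of committed precursors, at 0.74. Ptprz1, a receptor phosphatase, fell by 0.53 and did not pass without SCI replicate 1, without SCI replicate 3 or with GC content and length in the model. Bcas1 (mean 623 CPM in Sham and 466 in SCI) and Lhfpl3 (50.8 and 41.7) were also lower, without passing. With GC content and length in the model Bcas1 was past the limits at -0.52. Cspg4 is also made by pericytes, and a list of 10 fibroblast and pericyte genes summed to 585 to 1249 CPM in Sham, 9437 to 12656 in SCI and 8691 to 11129 in SCI+FIPI. None of the 10 precursor genes passed between SCI+FIPI and SCI, and Cspg4 had -0.31 (adjusted p = 0.03006, under the fold limit). The precursor genes and the 9 myelin genes thus had medians of opposite sign in SCI against Sham, although 3 of the 10 precursor genes had a negative value.

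Of 10 genes of the junction between axon and myelin, 7 fell and none rose in SCI, with a median of -0.84, where 22.5% of all genes tested fell. Cntnap2, the axonal protein beside the paranode, fell from 108 ± 8.998 to 33.7 ± 2.503 CPM (SD, n = 3), with a log2 fold change of -1.68 (SE 0.0880, adjusted p = 1.098e-09). Cntnap1, the axonal protein of the paranodal junction, had -1.37 (SE 0.0819, adjusted p = 2.696e-09). Compared with SCI, Cntnap2 in SCI+FIPI rose by 0.59 (SE 0.0884, adjusted p = 0.003032) and the other 9 did not pass, with Cntnap1 at 0.39 (adjusted p = 0.01128). Without SCI+FIPI replicate 2 no gene of the list passed. Of 10 neuronal genes, 9 fell in SCI against Sham with a median of -1.53, and 6 rose in SCI+FIPI against SCI with a median of 0.58, against 22.5% that fell and 3.06% past the limits among all genes tested. These 6 became 1 without SCI replicate 3 and 2 without SCI+FIPI replicate 2.

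**Figure D5:**
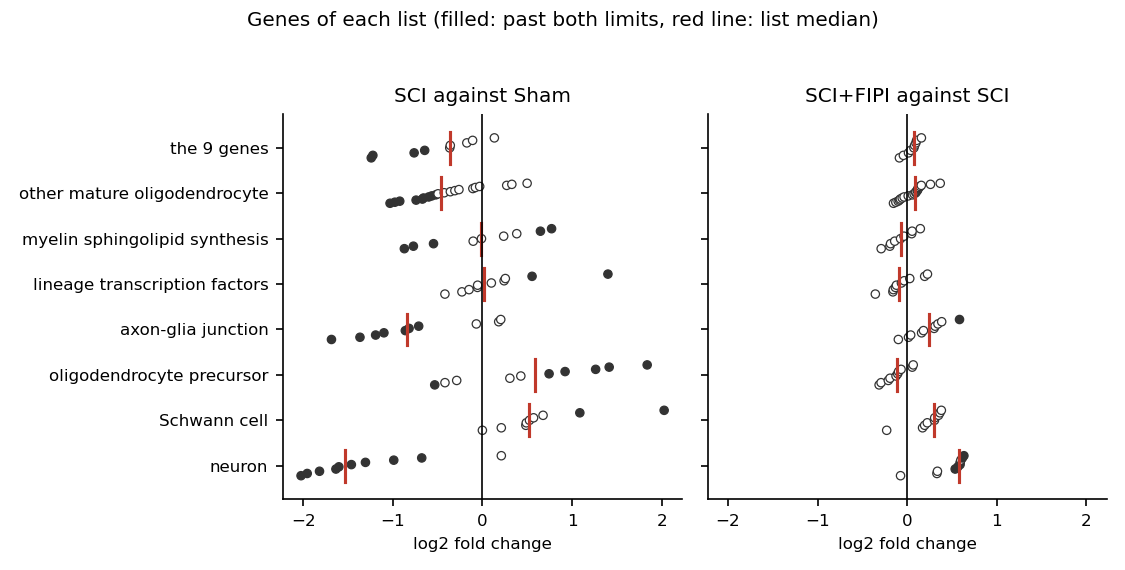
Log2 fold change (x axis) of every gene of 8 lists (rows) in SCI against Sham and in SCI+FIPI against SCI, with filled points past both limits and a red line at the median of each list. In the second panel the 9 genes, with a median of 0.08, stay near 0, and 6 neuronal genes lie past the limits.

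Lists of other cell types are given once for the same comparisons, in which 24.4% of all genes tested rose after injury, 22.5% fell, and 3.06% passed with FIPI. In SCI against Sham, 10 of 10 microglia and macrophage genes rose (median 2.80), 9 of 10 fibroblast and pericyte genes rose (2.44), 6 of 10 endothelial genes rose (0.81), and of 10 astrocyte genes 3 rose and 1 fell (0.08). Of 5 skeletal muscle genes tested none passed. Tnnt3 was past the limits without Sham replicate 2, at 1.44, and with a replicate block, at 0.94. Ckm was past them in the other direction without SCI replicate 2, at -2.18. With FIPI, against SCI, the fibroblast and pericyte list had 1 gene past the limits, Rgs5, a pericyte regulator of G protein signaling, which fell by 0.51 (SE 0.0822, adjusted p = 0.00412), and the other 4 lists had 0. Rgs5 lost the call without SCI replicate 2 or 3 and without SCI+FIPI replicate 2 or 3. The call was also lost with upper-quartile or total-count scaling, with at least 10 counts in every mouse, and without mitochondrial and hemoglobin genes. The microglia and macrophage list had 1 call without SCI+FIPI replicate 1, and the endothelial list 1 without SCI+FIPI replicate 3. The microglia and macrophage genes were all lower there without passing, with a median of -0.46.

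Genes with the profile most like the mean of the 9 over the 9 mice were looked for among 11605 genes whose log2 CPM averaged 3 or more. Likeness was the root mean square difference between log2 CPM centred on the mean of each gene. The nearest was Limk2, a kinase of actin regulation, at 0.0341, followed by Ephb1, an ephrin receptor, at 0.0407. Gkap1, Klhl12, Agpat4, Mapk8ip1, Dip2b, Enpp4 and Elavl3 came after these, up to 0.0531. These 9 genes were not on the list of other mature oligodendrocyte genes. They share the 9 libraries and their depth with the members, so the likeness is a description.

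The members themselves lay at different distances from their own mean profile. Mag at 0.0730 and Mog at 0.0746 were the closest, and 68 and 79 genes outside the set were closer than they were. Opalin at 0.329, Ermn at 0.321 and Cldn11 at 0.295 were the farthest. For single members, the nearest gene was Dusp10 for Mbp at 0.0266, Gtf2ird2 for Cnp at 0.0266, Prpf3 for Cldn11 at 0.0374 and Pacs2 for Myrf at 0.0410. It was Zfp37 for Mog at 0.0414, Arhgap23 for Mag at 0.0476, Gabarapl2 for Mobp at 0.0490, Cttnbp2 for Ermn at 0.0632 and Svip for Opalin at 0.0926. None of these 9 genes was on the list of mature oligodendrocyte genes.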

How the data were processed

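The authors removed low-quality and adapter sequence from the reads and deposited raw counts per gene, without normalization, for 52550 Ensembl genes in 9 mice. The submitters' processing notes name GRCm38 and R 4.2.3. The aligner, the counter and whether counting used strand are not given in the sources used here. Symbols, positions and lengths were taken from GENCODE M21, which holds 52403 of the identifiers.

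Counts were fitted in R 4.3.3 with edgeR 4.0.16 (TMM factors, filterByExpr by group, 18699 genes, 1 mean per group, robust quasi-likelihood) over all 9 mice. Limits were a log2 fold change of 0.5 and a Benjamini-Hochberg adjusted p of 0.05, as in the methods of the study, which name no test. CPM uses TMM-scaled totals, log2 CPM a prior count of 2, and FPKM the total count and exonic length. Sham, SCI and SCI+FIPI mice are taken as separate animals from the methods. Counting error is small at totals of 20806000 to 24582377. DESeq2 1.42.0 and limma-voom (limma 3.58.1) were alternatives, with other factors, filters, limits, offsets, a replicate block and each mouse left out. The steps were tested on simulated counts of 18699 genes for SCI against Sham. Of 100 genes changed by 1 on the log2 scale, 76 were called, and of 100 changed by 2, 91 were called. Among the unchanged genes 9 were called. The members and lists were chosen with earlier results of these data known. The text names all 9 members, up to 3 genes per list and comparison with the largest change, counts of each list, and the genes with the nearest profiles. Pmp22, Pou3f1, Pdgfra, Gpr17, Ptprz1, Bcas1, Lhfpl3, Elovl1, Elovl7, Zeb2, Gsn, Tnnt3 and Ckm were named after their values were seen. Not every gene covered by this rule is reported here. Staining and PCR were not analysed here.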

Additional observations from a re-analysis of the deposited data

How the results depend on the processing

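The counts of 4, 0 and 4 genes past the limits in SCI against Sham, SCI+FIPI against SCI and SCI+FIPI against Sham were the same with RLE, upper-quartile or total-count scaling, without a filter, with at least 10 counts in every mouse, with DESeq2, limma-voom, edgeR on the 2 groups alone, and without mitochondrial and hemoglobin genes. With a log2 limit of 1 they were 2, 0 and 2, and with the adjusted p alone 6, 0 and 7. With GC content and length in the model they were 5, 0 and 5, Mag being added. Leaving out each mouse gave 4 to 4, 0 to 0 and 3 to 4. The replicate numbers did not pair the mice (correlations of same-numbered mice between -0.30 and 0.30), and a replicate block gave 4, 0 and 4, or 5, 0 and 5 with GC content and length.

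Small differences changed sign. Cldn11 in SCI+FIPI against Sham was -0.034 with GC content and length, -0.037 with the block added, and -0.0056 to 0.15 with a mouse left out. In SCI+FIPI against SCI, leaving out a mouse gave -0.058 to 0.074 for Mag, -0.027 to 0.10 for Cnp and -0.14 to 0.016 for Cldn11. Cnp in SCI against Sham had an adjusted p from 0.00021 to 0.1759 over 21 alternatives, Myrf in SCI+FIPI against Sham 0.001904 to 0.1161 and Mbp there 0.0007696 to 0.06484. The count of all genes past the limits in SCI+FIPI against SCI, 572, was 189 (without SCI+FIPI replicate 2) to 1038 (without SCI replicate 1) with a mouse left out. The cause of these shifts was not tested. Depth was not a limit for any of the 9 genes.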
